A study of Mus musculus with 45 samples.

Results

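The genes that encode the proteins of the cytosolic ribosome were followed in sorted small-intestinal tuft cells of mice fed a high fat diet (HFD, 60% fat) or a low fat reference diet (RFD, 10% fat). They were chosen by symbol: every mouse gene named Rpl, Rplp or Rps with a number, or Rpsa, without pseudogenes and without the Rps6k kinases. The rule gave 86 genes, and 83 of them passed the filter on low counts (over 5 reads in 6 or more of 45 libraries) and were tested among 14020 genes in all. Rpl10l, Rpl39l and Rpl3l, the remaining 3, had 10, 4 and 1 reads over all libraries and were not tested. Rps19bp1 entered through its name but encodes a protein that binds RPS19, and it is named apart.

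Each library was bulk RNA-seq of the tuft cells of 1 male C57BL/6J mouse, housed at 30 °C, that had eaten chow for 1 week before the diets began at about 6 weeks of age. The cells were sorted by the surface markers EpCAM, CD45 and Siglec-F. The labels divide the mice into a set named STF, with 11 mice on RFD and 11 on HFD, and a set named LTF, with 11 on RFD and 12 on HFD. The labels give 9 weeks on the diets for all mice, whereas the study describes 9 weeks and a longer feeding. LTF was taken here as the longer feeding, so a difference between the sets and a difference in feeding time cannot be told apart. Total reads on genes ran from 189340 to 4690213 per library. The labelled cell type was checked on its markers: 15 of 15 tuft markers passed the filter on low counts, 11 of them (among them Dclk1, Trpm5 and Siglecf) had a read in every library, while markers of enterocytes, goblet cells and Paneth cells were also read in all or nearly all libraries. By level, the highest tuft marker was Sh2d6, with a median of 2230 TPM over the libraries. The highest enterocyte, Paneth and goblet markers were Fabp1 with 20375 TPM, Defa24 with 18045 TPM and Tff3 with 1096 TPM. In bulk RNA, more ribosomal protein mRNA per cell and more cells that are rich in it cannot be told apart.

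A ribosome is built from a small subunit, which reads the mRNA, and a large subunit, which joins the amino acids. Each subunit holds many proteins, nearly all in a single copy, and their genes are transcribed at high levels in growing cells. Their mRNAs belong to the TOP class, which begin with a tract of pyrimidines (C or T in the gene) and whose translation follows mTOR signalling. Cells that divide and secretory cells make many ribosomes, and in the intestine the crypt holds both.

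On HFD the median share of reads on ribosomal protein mRNA was higher in both sets, with no test made on the share. In the STF set the 83 genes held 0.665% to 2.11% of a library's reads on RFD, with a median of 1.27%, and 1.40% to 3.20% on HFD, with a median of 2.21%, and 11 of 11 HFD libraries were above the RFD median while 8 of 11 were above every RFD library. In the LTF set the share lay between 0.865% and 2.36% on RFD, with a median of 1.13%, and between 0.844% and 2.15% on HFD, with a median of 1.64%. There 11 of 12 HFD libraries were above the RFD median, and the highest library of the set was on RFD. The abundant transcripts AY036118 and Lars2 had lower shares on HFD: together they held a median of 12.0% of reads on RFD and 4.66% on HFD in STF, and 9.02% and 5.60% in LTF. With both left out of the total, the medians were 1.47% and 2.31% in STF and 1.21% and 1.73% in LTF. As a sum of TPM, which divides by transcript length, the RFD libraries had a median of 3.08% and the HFD libraries of 3.79% in STF, with 7 of 11 HFD libraries above the RFD median, and 2.87% and 3.70% in LTF.

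**Figure D1:**
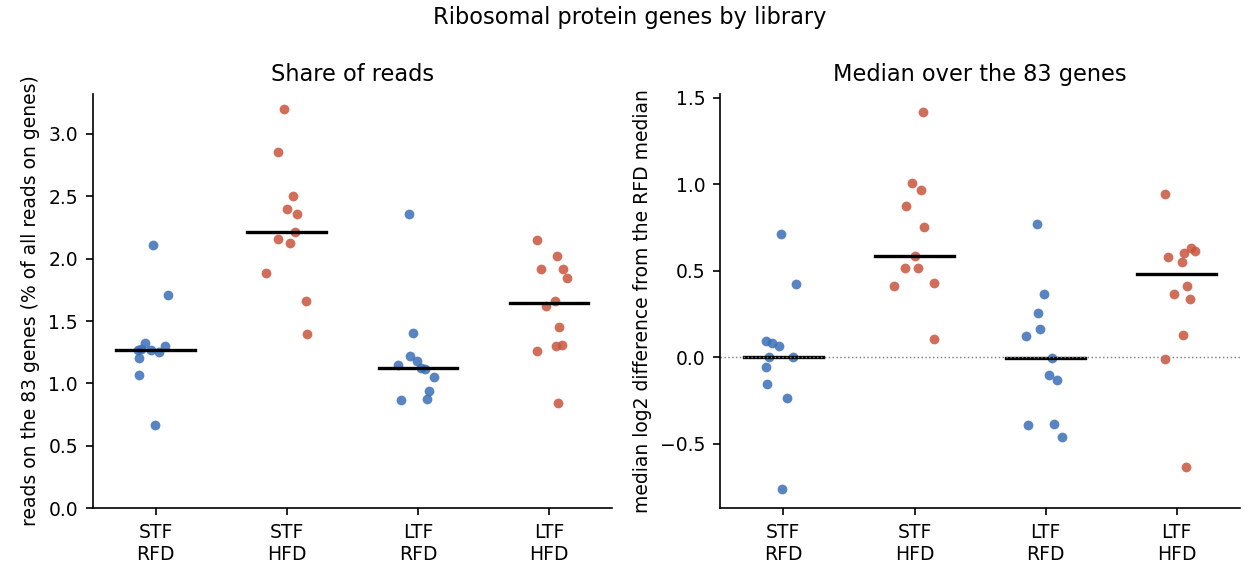
Each point is 1 library and each bar a group median, for the share of reads on the 83 ribosomal protein genes (left, percent of reads on genes) and for the median over the 83 genes of the log2 CPM difference from the RFD median of the same set (right). In STF every HFD library lies above the RFD median, whereas in LTF an HFD library has the lowest share, 0.844%, and an RFD library the highest, 2.36%.

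In the STF set 43 of the 83 genes were called higher on HFD and 0 lower, and none of the 43 calls was left when a score of cell type markers was a covariate or when limma was run on log2(TPM + 1). The fitted fold change was above 0 for 83 of 83 genes, as for 47.3% of all genes, or for 82 with limma on TPM, where Rpl41 was below 0. The calls are at an adjusted p under 0.1, where 2% of all genes tested were called higher and 1.33% lower and 3.32% in all (quasi-likelihood F test of edgeR, p adjusted after Benjamini-Hochberg over 14020 genes, n = 11 per diet). At an unadjusted p under 0.05, 71 of the 83 were higher and 0 lower, beside 9.73% and 8.27% of all genes, 18% together. The median log2 fold change was 0.71 over the members, which ran from 0.10 to 1.24, and -0.05 over all genes. Log2 fold changes of single genes are given ± SE. Ends of CPM ranges in STF often came from the same libraries. The HFD maximum was from mouse 80 for Rps23, Rps7, Rps18, Rps6, Rpl32, Rps3 and Rplp0, but from mouse 6 for Rpl36a and Rpl5. Mouse 80 had over 10% of reads on Paneth markers, and the 83 genes held 2.21% of its reads but 4.06% as scaled CPM. The RFD minimum was from mouse 40 for these genes except Rps18, Rpl36a and Rpl5. Mouse 40 had 189340 reads, 41.7% of them mitochondrial. For 32 of the 83 genes every HFD library was above the RFD median, as for 2.85% of all genes, and for 23 the HFD median was above every RFD library, as for 2.82%. In 67 at most 1 HFD library was not above the RFD median, as for 11% of all genes. For 0 of them did the diets separate fully, with every HFD library above every RFD library, as for 0.0214% of all genes.

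Both subunits took part. Of 31 small subunit genes, 21 were called higher (median log2 fold change 0.75), and of 43 large subunit genes outside the stalk, 20 were (median 0.67). Of the 3 stalk genes 1 was called, and of the 5 paralogs and copies 1 was called.

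The gene with the smallest p was a small subunit gene. Rps23, at the decoding centre of the ribosome (chromosome 13, 90922958 to 90924950), ran from 63.7 to 162 CPM on RFD (median 102) and 105 to 319.5 CPM on HFD (median 184). All 11 HFD libraries were above the RFD median and 9 were above every RFD library, with a log2 fold change of 0.91 ± 0.19 (adjusted p = 0.0321). Rps7 (chromosome 12, 28630854 to 28635953), a gene mutated in some families with Diamond-Blackfan anaemia, had the largest change of the small subunit genes, from 102 to 326 CPM on RFD (median 166) and 123 to 728 CPM on HFD (median 390.5). Its log2 fold change was 1.13 ± 0.24 (adjusted p = 0.0322), and 7 of 11 HFD libraries were above every RFD library while a single one was below the RFD median. Rps18, in the head of the small subunit, ran from 160.2 to 373 CPM on RFD (median 178) and 163 to 685 CPM on HFD (median 431), a log2 fold change of 0.98 ± 0.22 (adjusted p = 0.0351). Rps6, the ribosomal protein that S6 kinases phosphorylate, ran from 108 to 569.8 CPM on RFD (median 240.5) and 277 to 1009 CPM on HFD (median 510.1), with 11 of 11 HFD libraries above the RFD median and a log2 fold change of 0.97 ± 0.24 (adjusted p = 0.0543). Rps24 was lower in level but as clear, with 9 of 11 HFD libraries above every RFD library and a log2 fold change of 0.77 ± 0.19 (adjusted p = 0.0543).

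Among the genes fixed for their roles, Rps3, which lies where mRNA enters, Rps19, the gene most often mutated in Diamond-Blackfan anaemia, and Rps27a, which is made as a fusion with ubiquitin, were called as well. Rps3 ran from 82.8 to 365 CPM on RFD (median 254) and 312 to 583 CPM on HFD (median 332), and 9 of 11 RFD libraries lay below the lowest HFD library. Its log2 fold change was 0.66 ± 0.20 (adjusted p = 0.0888), that of Rps19 was 0.79 ± 0.23 (adjusted p = 0.0772) and that of Rps27a was 0.71 ± 0.20 (adjusted p = 0.0757). Rpsa, which is also known as a laminin receptor, was not called, with 121 to 400.5 CPM on RFD (median 221) and 218 to 583 CPM on HFD (median 324) and a log2 fold change of 0.52 ± 0.20 (adjusted p = 0.17). Rps4x, the X-linked gene of its protein, had a log2 fold change of 0.92 ± 0.26 (adjusted p = 0.0766), and its relative Rps4l is annotated as a pseudogene and was outside the rule.

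Large subunit genes followed at a similar size. Rpl36a (chromosome X, 134585654 to 134588062) ran from 21.4 to 85.6 CPM on RFD (median 38) and 39.9 to 122 CPM on HFD (median 84), a log2 fold change of 1.05 ± 0.23 (adjusted p = 0.0351), and 11 of 11 HFD libraries were above the RFD median. Rpl32 ran from 50.9 to 248 CPM on RFD (median 114) and 192 to 558 CPM on HFD (median 256), and 9 of 11 RFD libraries lay below the lowest HFD library, with a log2 fold change of 1.03 ± 0.23 (adjusted p = 0.0351). Rpl35a and Rpl15, both mutated in some families with Diamond-Blackfan anaemia, had log2 fold changes of 0.77 ± 0.18 (adjusted p = 0.047) and 0.89 ± 0.22 (adjusted p = 0.0543). For Rpl35a, 8 of 11 HFD libraries were above every RFD library, and for Rpl15, 6 of 11 were.

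The stalk recruits the elongation factors that drive each step of synthesis. Its base, Rplp0, had the highest median CPM of the family on both diets in STF and ran from 433 to 1686 CPM on RFD (median 714) and 689 to 3581 CPM on HFD (median 1325), a log2 fold change of 0.94 ± 0.26 (adjusted p = 0.0667). The stalk arms Rplp1 and Rplp2 had log2 fold changes of 0.58 and 0.66 and missed the threshold, with adjusted p of 0.128 and 0.123. Rpl5 and Rpl11, which carry 5S rRNA into the large subunit and can bind the p53 regulator Mdm2, also missed it. Rpl5 ran from 103 to 574 CPM on RFD (median 210.1) and 96.2 to 935 CPM on HFD (median 472), where 2 of 11 HFD libraries were above every RFD library, and had a log2 fold change of 0.96 ± 0.32 (adjusted p = 0.115). Rpl11 had a log2 fold change of 0.59 ± 0.20 (adjusted p = 0.118). Rpl10, which joins the large subunit late, had the lowest value among these role genes, with a log2 fold change of 0.48 ± 0.18 (adjusted p = 0.155) and 11 of 11 HFD libraries above the RFD median. Rpl13a, which can leave the ribosome to silence inflammatory mRNAs, was called at 0.73 ± 0.19 (adjusted p = 0.0662), and Rpl38, known for translation of Hox mRNAs, was just outside at 0.63 ± 0.20 (adjusted p = 0.106).

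**Figure D2:**
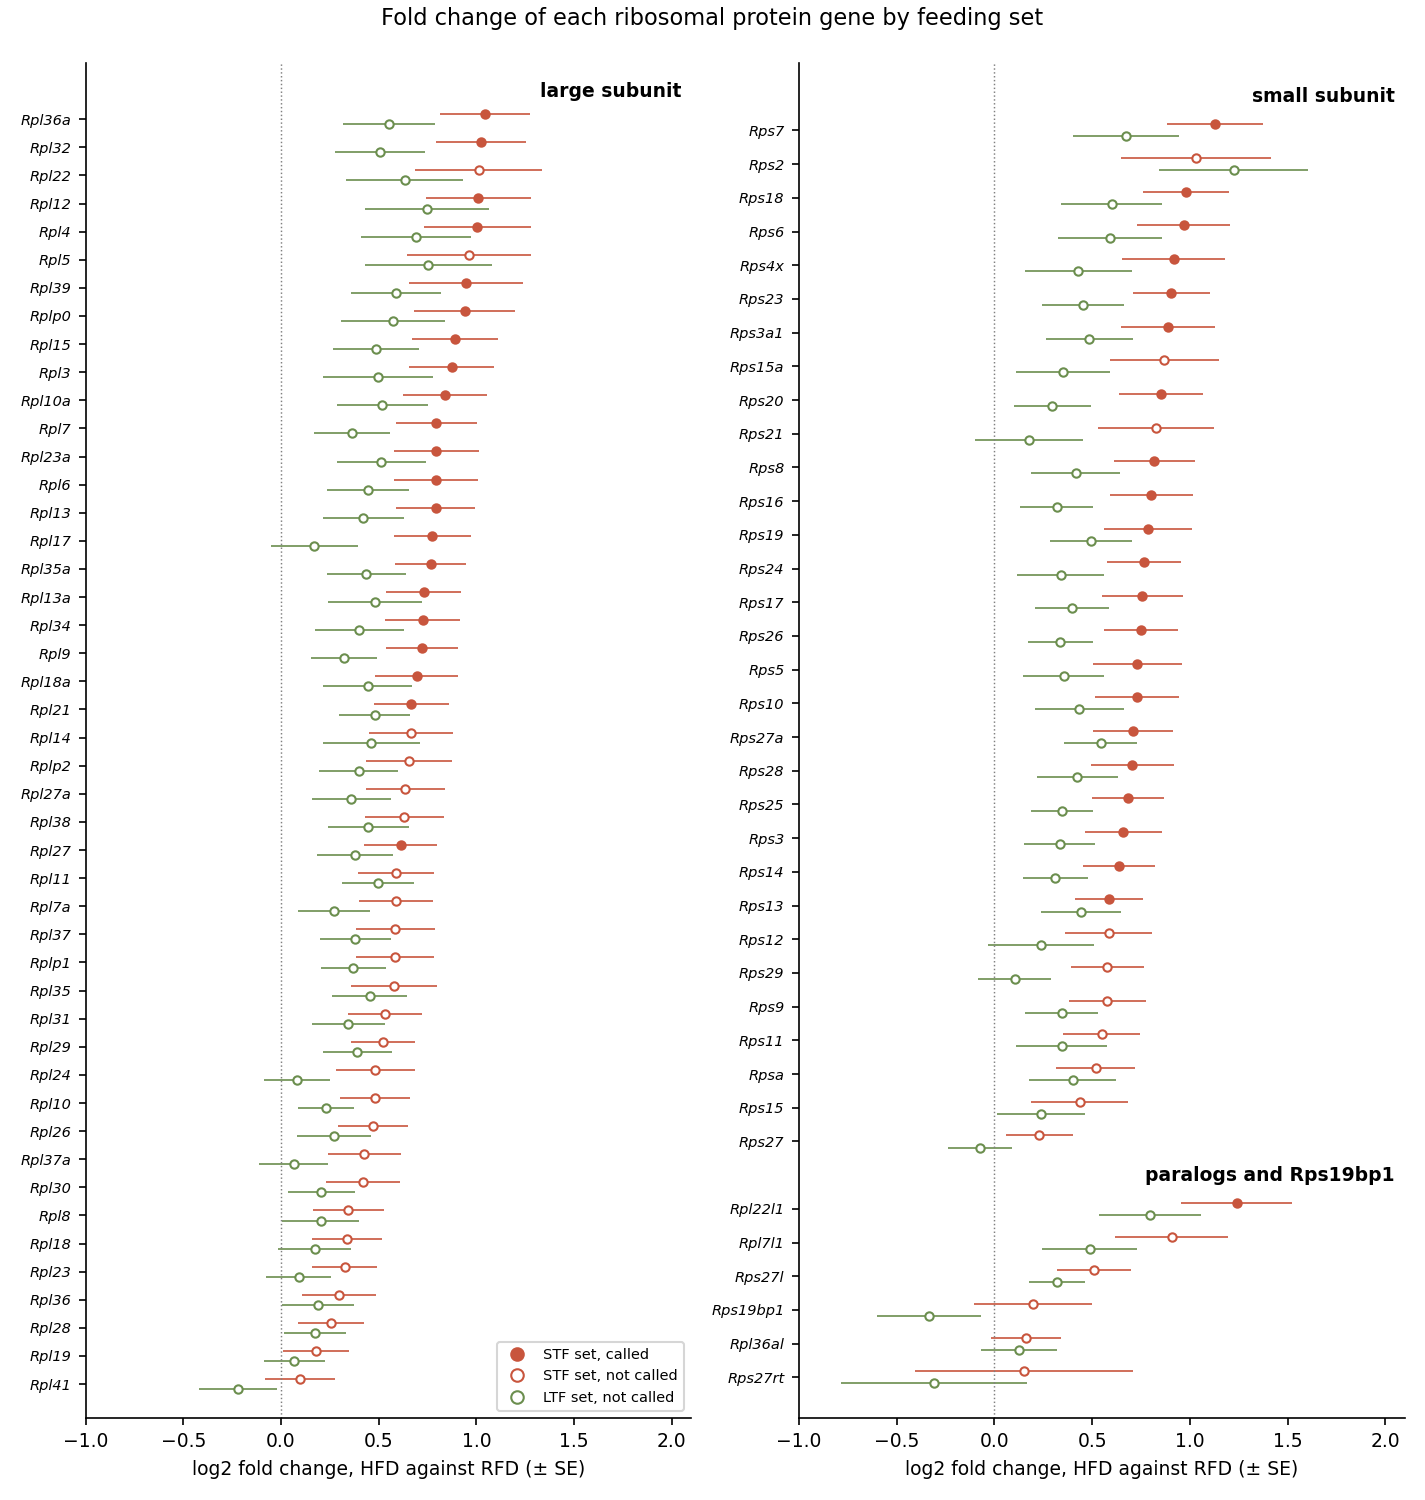
Each row is 1 gene, with its log2 fold change of HFD against RFD (points) and SE (lines) in the STF set (red) and the LTF set (green), ordered by the STF value within each group. Filled points passed an adjusted p under 0.1. All 83 STF points lie right of 0 in this fit (82 with limma on TPM), and the lowest are Rpl41 among large subunit genes and Rps27 among small subunit genes.

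On the TPM scale, which divides by length, the highest members over all 45 libraries were Rps27, Rpl41 and Rps29, with medians of 2623, 2604 and 1432 TPM, and the lowest were Rps19bp1, Rps27rt and Rpl7l1, with 38.9, 33.8 and 16.3 TPM. The median over the 83 genes was 285 TPM, against 4.17 TPM for all genes tested. Rpl41, which encodes a very short peptide of the large subunit, ran from 267 to 688 CPM on RFD (median 452) and 384 to 696 CPM on HFD (median 432) in STF, a log2 fold change of 0.10 ± 0.18 (adjusted p = 0.83), and 5 of 11 HFD libraries were above the RFD median. Rps27, a zinc finger protein of the small subunit, had 0.23 ± 0.17 (adjusted p = 0.503). Rps29, another zinc finger protein, had a log2 fold change of 0.58 ± 0.19 (adjusted p = 0.114), with 11 of 11 HFD libraries above the RFD median. The TPM medians of Rps27 and Rpl41 lay close together, and their ranges in each group overlapped, so their order is not resolved.

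Paralogs of ribosomal protein genes were set beside their partners. Rpl22l1 (chromosome 3, 28805436 to 28807424), the paralog of the large subunit gene Rpl22, had the largest fold change of the family in STF: it ran from 15.6 to 64.2 CPM on RFD (median 34.1) and 18.3 to 130.3 CPM on HFD (median 75.6), a log2 fold change of 1.24 ± 0.29 (adjusted p = 0.0432). Rpl22 itself, which T cell development needs, had 1.01 ± 0.33 (adjusted p = 0.109). Rpl36al (chromosome 12, 69182731 to 69184083) shares 87.7% of its coding bases with Rpl36a. It ran from 115 to 292 CPM on RFD (median 217) and 169 to 334 CPM on HFD (median 217) and had a log2 fold change of 0.16 ± 0.18 (adjusted p = 0.682), and the difference between the 2 genes was not tested. Rps27l, which shares 75% of coding bases with Rps27, had 0.51 ± 0.19 (adjusted p = 0.158), and Rpl7l1, which shares 62.6% with Rpl7, had 0.91 ± 0.29 (adjusted p = 0.107) beside 0.80 ± 0.21 (adjusted p = 0.0662) for Rpl7. Rpl39 was called at 0.95 ± 0.29 (adjusted p = 0.097) and Rpl3, close to the site of peptide bond formation, at 0.87 ± 0.22 (adjusted p = 0.0543), while their paralogs Rpl39l and Rpl3l had almost no reads. Rps27rt has the same coding sequence as Rps27 over 252 of 252 bases, so reads from the coding part fit both genes. Its level was at most 9.35 CPM in STF, its counts and those of Rps27 were whole numbers in sum, and its values are uncertain. Rps19bp1 had a log2 fold change of 0.20 ± 0.30 (adjusted p = 0.79).

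**Figure D3:**
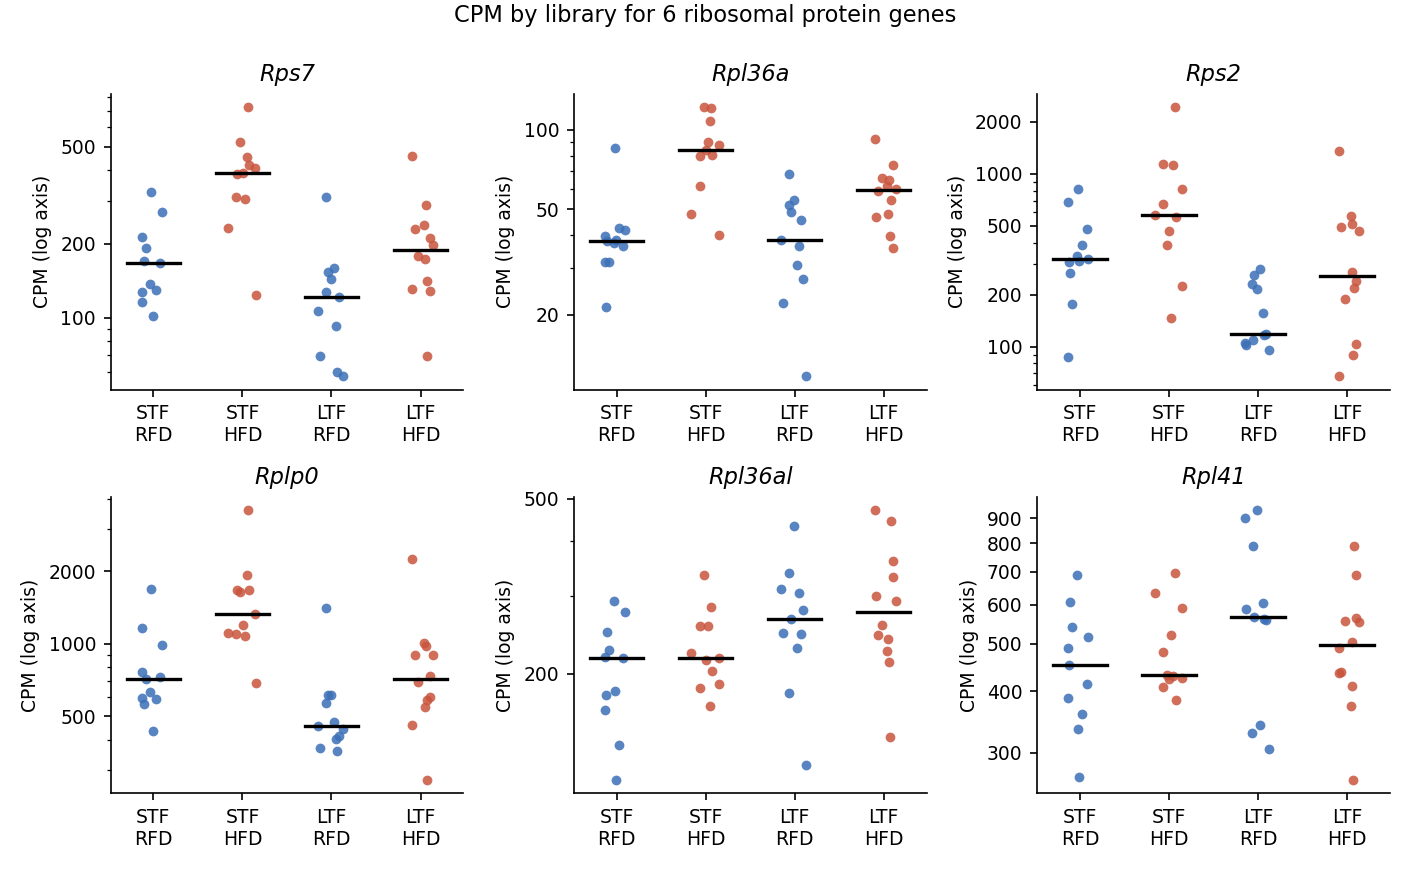
Each point is the CPM of 1 library on a log axis and each bar a group median, for 3 genes of both subunits (Rps7, Rpl36a, Rps2), the stalk base Rplp0, and Rpl36al and Rpl41. Rps7 and Rpl36a medians in STF go from 166 to 390.5 CPM and from 38.0 to 84 CPM, whereas the Rpl36al median is 217 CPM on both diets and the ranges of all groups overlap.

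Windows around the starts of the RefSeq transcripts (GRCm38.p6) held a long run of C or T in some members and a short one in others. The run was sought anywhere in the window, so it does not show whether the mRNA begins with a pyrimidine tract. In Rps7 it began 7 bases before the start, and in Rpl36a at base 10. Where several starts were listed, as for Rpl35a with 3 and Rps24 with 2, the start whose window had the longest run was printed. The windows hold the 10 bases before and the 20 bases from the start, with the longest unbroken run of C or T in capitals. They are given for the 9 of the 10 called members with the smallest p that have an entry, and below them for 3 members with fold changes near 0.
Rps23, chr13:90923112-90923141 plus strand: cggctgggcggggCTTCCCgcaatgccttg
Rps7, chr12:28635934-28635963 minus strand: cggTTTCCacccacctacttccgctgtccc
Rpl36a, chrX:134585644-134585673 plus strand: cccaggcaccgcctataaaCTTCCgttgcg
Rps18, chr17:33955646-33955675 minus strand: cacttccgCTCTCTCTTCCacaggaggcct
Rpl22l1, chr3:28805498-28805527 plus strand: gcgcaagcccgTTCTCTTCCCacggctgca
Rpl35a, chr16:33056472-33056501 plus strand: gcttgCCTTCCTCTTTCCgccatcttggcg
Rps6, chr4:86857348-86857377 minus strand: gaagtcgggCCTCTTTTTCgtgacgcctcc
Rps24, chr14:24490668-24490697 plus strand: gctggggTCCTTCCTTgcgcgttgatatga
Rpl15, chr14:18270967-18270996 minus strand: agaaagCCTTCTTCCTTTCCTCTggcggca
Rps27, chr3:90213629-90213658 minus strand: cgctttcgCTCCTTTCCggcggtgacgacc
Rpl41, chr10:128549149-128549178 minus strand: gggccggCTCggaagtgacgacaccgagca
Rpl36al, chr12:69184048-69184077 minus strand: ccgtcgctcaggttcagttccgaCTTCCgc
The run is 17 bases in Rpl15, 13 in Rpl35a and 11 in Rps18, but 6 in Rps23 and 5 in Rps7. Rps27, which was not called, has a run of 9.

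A RefSeq promoter entry matched 63 of the 83 genes. A run of 8 or more C or T within 20 bases of a listed start was found in 30 of them (47.6%) and in 19% of 10230 other genes tested, and in 14 of 30 members called in STF and 16 of 33 not called. CTTTCC on the gene's strand in the same window was found in 17.5% of members and 2.27% of others, and CTTCC in 27.0% and 13.3%. Over the 300 bases of the entry and on both strands, CGGAAG was found in 68.3% of members and 33.7% of others, its longer form CCGGAAG, which contains it, in 39.7% and 19.5%, AAGATGGC in 9.52% and 5.17%, and CACGTG in 9.52% and 11.5%. Among members called in STF and those not called, the shares were 60% and 75.8% with CGGAAG, 40% and 15.2% with CTTCC, 16.7% and 18.2% with CTTTCC, 36.7% and 42.4% with CCGGAAG, 6.67% and 12.1% with AAGATGGC and 10% and 9.09% with CACGTG, with no test made.

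In the LTF set most fold changes lay in the same direction at a lower value, and the difference from STF did not pass its own test, given with the interaction. The fitted fold change was above 0 for 79 of the 83 genes, as for 47.9% of all genes, with a median of 0.39 beside -0.03 over all genes, but 0 were called in either direction by the same edgeR test, where 0.435% of all genes were called higher, 0.357% lower and 0.792% in all (n = 11 on RFD and 12 on HFD). At an unadjusted p under 0.05, 33 of 83 were higher and 0 lower, beside 4.69% and 5.61% of all genes, 10.3% together. Every HFD library was above the RFD median for 1 of the 83, Rpl7l1, as for 1.71% of all genes, and the HFD median was above every RFD library for 2, as for 1.18%. In 32 at most 1 HFD library was not above the RFD median, as for 6.02% of all genes, and in 0 did the diets separate fully, as for 0.00713%. DESeq2 called 4 of them among 351 genes in all, the fit with the number series of the mice as a term 2 among 187, and a rank test in the manner of SAM-seq 32 among 782.

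The nearest to the threshold was Rps2, a small subunit protein where mRNA enters (chromosome 17, 24718116 to 24721929), which ran from 96.1 to 282 CPM on RFD (median 118) and 67.5 to 1350.0 CPM on HFD (median 255). Its log2 fold change was 1.22 ± 0.38 (adjusted p = 0.196), 5 of 12 HFD libraries were above every RFD library, and 3 were below the RFD median. In STF the same gene had 1.03 ± 0.38 (adjusted p = 0.158), with 9 of 11 HFD libraries above the RFD median. Rpl22l1 had the second smallest p, with 16.2 to 69.8 CPM on RFD (median 26.4) and 20.4 to 99.5 CPM on HFD (median 56.1) and a log2 fold change of 0.80 ± 0.26 (adjusted p = 0.226), and Rps27a had 0.54 ± 0.19 (adjusted p = 0.263). Rplp0 ran from 359 to 1402 CPM on RFD (median 453) and 272 to 2248 CPM on HFD (median 714), a log2 fold change of 0.57 ± 0.27 (adjusted p = 0.463), and 11 of 12 HFD libraries were above the RFD median although an RFD library reached the upper part of the HFD range.

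Genes called in STF had values here that did not pass. The log2 fold changes in LTF were 0.45 for Rps23, 0.67 for Rps7, 0.60 for Rps18, 0.59 for Rps6 and 0.34 for Rps24. Among large subunit genes they were 0.55 for Rpl36a, 0.51 for Rpl32, 0.44 for Rpl35a and 0.49 for Rpl15. Of the role genes, Rps3 had 0.34, Rps19 0.49, Rpsa 0.40, Rpl5 0.75, Rpl11 0.50, Rpl10 0.23, Rpl13a 0.48 and Rpl38 0.45, with adjusted p from 0.318 for Rpl11 to 0.605 for Rpl10. The fold changes below 0 were 4: the copy Rps27rt at -0.31, Rps19bp1 at -0.33, Rpl41 at -0.22 and Rps27 at -0.07, with adjusted p of 0.878, 0.716, 0.764 and 0.924, and Rps27 was at 0.01 or less above 0 without the filter on low counts and with the number series as a term. Rpl41 ran from 305 to 933 CPM on RFD (median 567) and 264 to 788 CPM on HFD (median 496), and 2 of 12 HFD libraries were above the RFD median. Rpl36al had a log2 fold change of 0.13 ± 0.20 (adjusted p = 0.879).

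**Figure D4:**
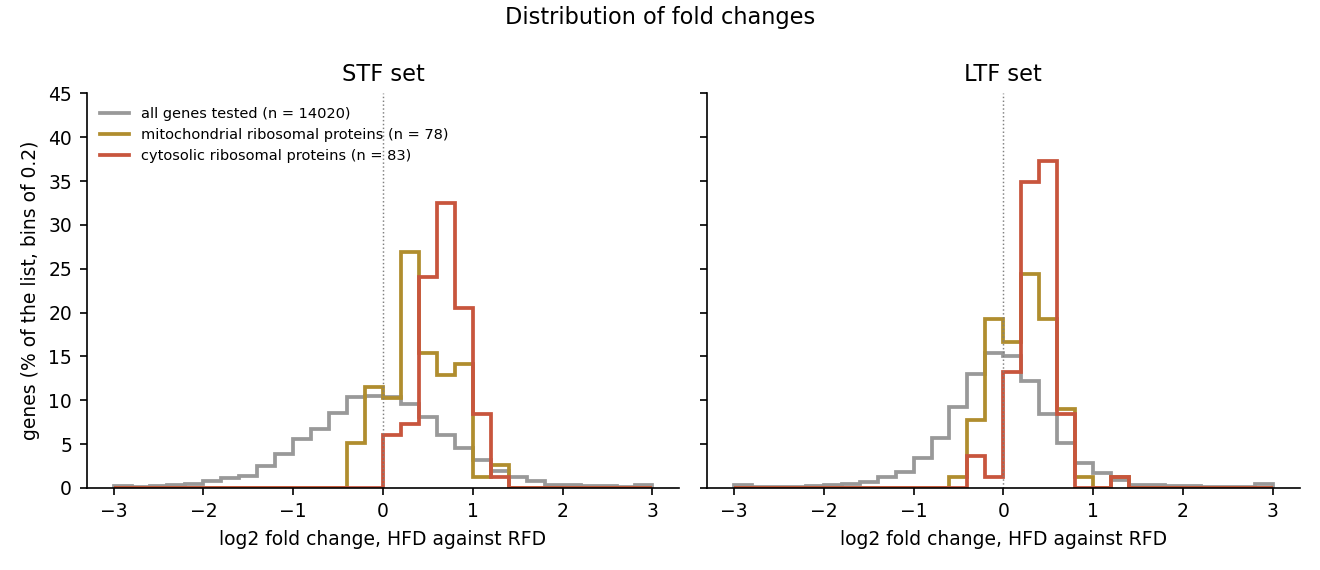
The percent of genes per bin of 0.2 in log2 fold change (HFD against RFD, values beyond 3 placed in the end bins) is drawn for all 14020 genes tested, 78 mitochondrial and 83 cytosolic ribosomal protein genes. Cytosolic genes sit to the right of all genes, with medians of 0.71 and -0.05 in STF and 0.39 and -0.03 in LTF.

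Over both sets, with the set as a term (n = 22 on RFD and 23 on HFD), 65 of the 83 genes were called higher and 0 lower, where 6.03% of all genes were called higher and 5.68% lower, 11.7% in all. The fold change was above 0 for 80 of the 83, as for 46% of all genes. At an unadjusted p under 0.05, 73 were higher and 0 lower, beside 12% and 11.6% of all genes, 23.5% together. The median log2 fold change was 0.53, beside -0.06 over all genes. The genes with the smallest p were Rpl22l1 at 0.99 ± 0.19 (adjusted p = 0.00102), Rpl36a at 0.78 ± 0.16 (adjusted p = 0.00193), Rps7 at 0.88 ± 0.18 (adjusted p = 0.00212), Rps23 at 0.66 ± 0.14 (adjusted p = 0.00246) and Rps27a at 0.61 ± 0.13 (adjusted p = 0.00254). Rpl32, Rps26, which lies where mRNA leaves, Rps18, Rpl35a and Rpl21 followed, with log2 fold changes of 0.74, 0.53, 0.77, 0.59 and 0.55. Genes that had missed the threshold in each set alone passed here, among them the stalk genes Rplp1 at 0.47 ± 0.12 (adjusted p = 0.013) and Rplp2 at 0.52 ± 0.14 (adjusted p = 0.0191). Rpl5 and Rpl11 passed at 0.83 ± 0.23 (adjusted p = 0.0234) and 0.53 ± 0.12 (adjusted p = 0.00655), Rpsa and Rpl10 at 0.45 ± 0.14 (adjusted p = 0.0482) and 0.34 ± 0.10 (adjusted p = 0.0312), and Rps2 at 1.10 ± 0.28 (adjusted p = 0.0133). Rpl22 and the paralog Rps27l passed at 0.80 ± 0.22 (adjusted p = 0.0193) and 0.40 ± 0.11 (adjusted p = 0.017). Rps29, Rps27, Rpl41 and Rpl36al did not, with 0.33, 0.07, -0.07 and 0.14.

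Whether the response to HFD differed between the sets was tested as an interaction. It passed for 0 of the 14020 genes (edgeR, adjusted p), 0% of all genes in either direction, and an unadjusted p under 0.05 was found for 3.22% of all genes (1.94% with a larger and 1.28% with a smaller diet effect in LTF) and 0 of the 83. DESeq2 also called 0. The difference, LTF minus STF, was below 0 for 81 of the 83 genes with a median of -0.27, where 54.3% of all genes were above 0 with a median of 0.06. With limma on TPM or the marker covariate described for the cell types, 61 of the 83 were below 0, with medians of -0.11 and -0.075. With the number series as a term the median was -0.14, and in the other alternatives it lay between -0.27 and -0.32. The smallest p belonged to Rpl17, at the exit of the peptide tunnel, with -0.57 ± 0.29 (p = 0.0532), Rps20 with -0.50 ± 0.28 (p = 0.0841) and Rps16 with -0.44 ± 0.26 (p = 0.105), each unadjusted and each with an adjusted p of 1.00. Rps2 and Rpl36al were above 0, at 0.22 and 0.02, and Rpl36al fell below 0 in 7 of 11 alternatives. The order of the members was alike in the sets, which share no library: Spearman's rho between the 83 fold changes in STF and in LTF was 0.80, as a description, since genes of a library share its depth and composition.

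The mice fall by number into 3 series, numbers 1 to 8, multiples of 10, and other numbers from 21 to 64, with 3 or 4 mice per diet and set in each and 1 mouse in each set outside them. Per the study's methods the mice lived 4 to a cage and were killed on 3 days, 1 cage per group on each day, and the series are used as a stand-in for the day, which the labels do not give. Mice of a cage share diet and day, so the n of a group counts mice that are not fully independent. In STF the median difference over the 83 genes was 0.62, 0.82 and 0.48 in log2 in these series, with 79, 83 and 79 genes higher on HFD, beside 0.13, 0.11 and -0.09 over all genes. In LTF it was 0.62, 0.22 and 0.54, with 81, 71 and 80 genes higher, beside 0.29, -0.14 and -0.07. The direction was the same in all 6. With the series as a term, the mice outside them do not contribute. In that fit 36 of the 83 were called in STF among 460 of all genes, and 69 over both sets among 1774.

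Markers of tuft cells and of other cell types were summed in the same libraries. The summed level of 15 tuft markers was 3585 to 26704 CPM on RFD (median 16627) and 394 to 25532 CPM on HFD (median 7189) in STF, with 9 of 11 HFD libraries below the RFD median, and 0 of the markers were called, with 14 of 15 fold changes below 0. In LTF the medians were 21863 and 16597 CPM, with 11 of 12 below, and over both sets 4 tuft markers were called lower. Over both sets there were also calls for 2 stem and transit amplifying markers and 1 goblet marker (higher), 2 enteroendocrine markers and 1 T cell marker (lower) and 4 enterocyte markers (2 higher and 2 lower). The 12 stem and transit amplifying markers summed to a median of 591 CPM (327 to 2794) on RFD and 1861 CPM (280 to 7641) on HFD in STF, where 4 were called higher, and were at 365 and 594 CPM in LTF, where 0 were. The 6 Paneth markers had medians of 2595 and 26091 CPM in STF and 1645 and 11397 CPM in LTF, within ranges that reached 586273 CPM on HFD, and 7 goblet markers had 2280 and 3035 CPM in STF and 1541 and 2685 CPM in LTF, with 0 called. The 10 enterocyte markers had medians of 11096 and 8366 CPM on RFD and HFD in STF, and 20141.5 and 20571 CPM in LTF. In both sets these medians were below those of the tuft markers on RFD and above them on HFD. Of the 10 enterocyte markers 1 was called lower in STF and 1 higher in LTF, and of 7 enteroendocrine markers 2 were called lower in LTF. Immune markers varied between libraries: Cd3e had no read in 24 libraries, Epx in 41, Prg2 in 35 and Cd79a in 29, but Ccr3 and Lyz2 in 12 each and Igha in 14, and no list of T cell, B and plasma cell, eosinophil and myeloid, or M cell markers held a call within a set. Medians of these 4 lists on RFD and HFD in STF were 17.2 and 1.39, 142 and 3.46, 12.7 and 7.56, and 527 and 213 CPM, and in LTF they were 10.8 and 2.27, 26.1 and 18.2, 7.12 and 6.39, and 573 and 482 CPM. Single libraries were far above these medians: B and plasma cell markers reached 2862 CPM in STF on RFD and 5180.4 CPM in LTF on HFD, and eosinophil and myeloid markers 1562 CPM in LTF on HFD. The M cell sums rest on 2 of 4 listed markers, Spib and Ccl20, with medians of 170 and 4.01 TPM. Gp2 and Tnfaip2 did not pass the filter on low counts, and Gp2 had no read in 37 libraries.

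The number of calls in STF changed when these markers were taken into account. A marker score was taken per library as the mean log2 CPM of the 15 tuft markers minus that of 57 markers of other cells, and it ran from 0.43 to 5.998 on RFD and from -2.76 to 6.31 on HFD in STF. With the score as a covariate, 0 of the 83 genes were called in STF, where 24 of all genes were, while 83 of 83 fold changes remained above 0 with a median of 0.47. Over both sets 50 of the 83 were called with the covariate, among 623 of all genes, with a median of 0.40. Paneth markers took over 10% of reads in STF mouse 20 on RFD and STF mice 8, 70 and 80 on HFD. In LTF they did so in mouse 7 on HFD. Without these libraries, a choice made after seeing the data, 12 of the 83 were called in STF among 141 of all genes. The median there was 0.58, and over both sets 60 were called among 876. Without the 2 STF libraries under 500000 reads, of mouse 40 on RFD and mouse 50 on HFD, 28 were called in STF among 290. With limma on log2(TPM + 1) 0 were called in STF among 9, with a median of 0.53, and 35 over both sets among 941. The part of any single cell type in these values was not tested.

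**Figure D5:**
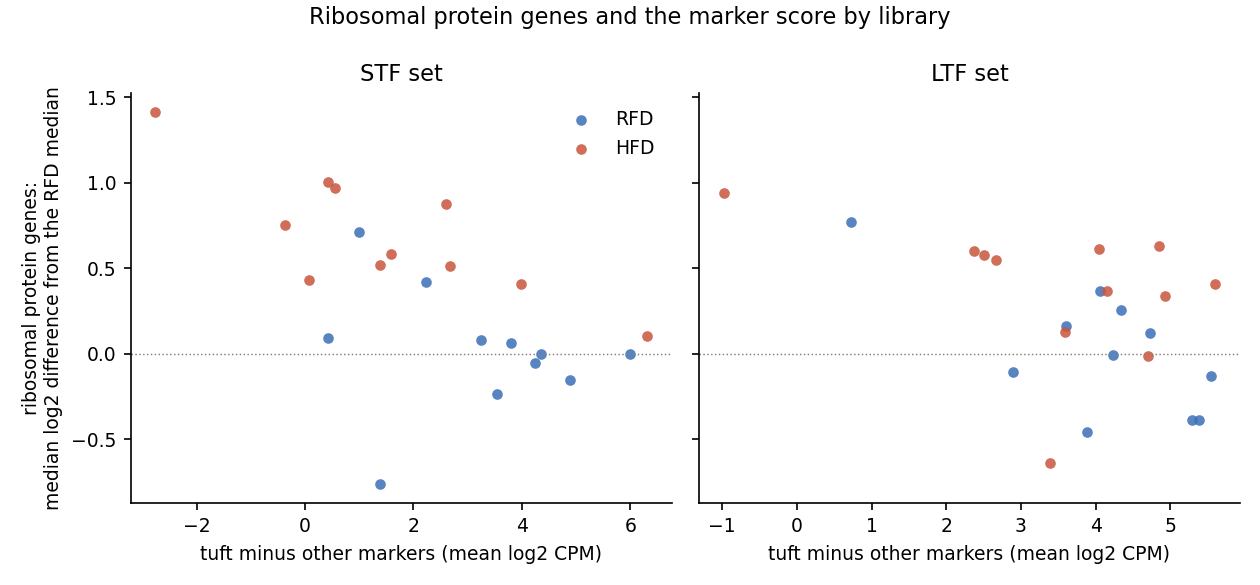
Each point is 1 library, with the tuft minus other marker score on the horizontal axis (mean log2 CPM difference) and the median log2 CPM difference of the 83 ribosomal protein genes from the RFD median of its set on the vertical axis. The STF library on HFD with the lowest score, -2.76, has the highest value on this scale, 1.41, but a share of reads of 2.21%, the median of its group, and the lowest share of TPM in it, 1.51%, and 6 of the 7 HFD libraries with a score over 4 lie above 0. The STF library among the 7, with a score of 6.31, has the lowest value of the STF HFD libraries, 0.103, and the others are LTF libraries.

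Genes that work with the ribosome gave mixed values, to be read against the 2% of all genes called higher in STF, 0.435% in LTF and 6.03% over both sets. Fau, which encodes a ribosomal protein made as a fusion with a ubiquitin-like protein, and Rack1, a scaffold on the small subunit, stand outside the symbol rule. Fau ran from 108 to 404 CPM on RFD (median 298) and 233 to 381 CPM on HFD (median 279) in STF with a log2 fold change of -0.02 ± 0.18 (adjusted p = 0.973), and Rack1 had 0.54 ± 0.22 (adjusted p = 0.189). Neither was called in a set. Over both sets Rack1 was called at 0.53 ± 0.19 (adjusted p = 0.0776). Of 17 translation factors and other genes with a TOP start, 9 were called higher in STF, 0 in LTF and 9 over both sets, and none lower, with medians of 0.76, 0.34 and 0.55. Eef1a1, the factor that brings tRNA to the ribosome, ran from 955 to 2953 CPM on RFD (median 1269.6) and 1258 to 6431 CPM on HFD (median 2204) in STF, 0.95 ± 0.25 (adjusted p = 0.0662). Pabpc1, which binds poly(A) tails, had 0.93 ± 0.23 (adjusted p = 0.0561), Npm1, a nucleolar chaperone, 1.32 ± 0.33 (adjusted p = 0.0572), and Eif3e, an initiation factor subunit, 1.20 ± 0.32 (adjusted p = 0.0662).

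Of 28 genes for ribosome assembly in the nucleolus, 27 were tested, and 5 were called higher in STF, 0 in LTF and 9 over both sets, with medians of 0.92, 0.51 and 0.70. In STF they included Nhp2 and Nop10, parts of the particles that modify rRNA, at 1.11 ± 0.26 (adjusted p = 0.0433) and 0.91 ± 0.25 (adjusted p = 0.0696). Polr1b, a subunit of RNA polymerase I, was called at 2.14 ± 0.60 (adjusted p = 0.0728) and nucleolin, Ncl, at 0.93 ± 0.28 (adjusted p = 0.0827). Of 78 mitochondrial ribosomal protein genes, 4 were called higher in STF, 0 in LTF and 17 over both sets, beside 2%, 0.435% and 6.03% of all genes. Their medians were 0.35, 0.28 and 0.30, below those of the cytosolic genes in each comparison, a difference that was not tested. Mrpl3, Mrpl12, Mrps9 and Mrpl16 were the 4, with log2 fold changes of 1.26, 0.93, 0.82 and 1.03. Among 15 regulators of ribosomal protein synthesis, which include Mtor, Rptor, Larp1 and Myc, 0 were called in either set by edgeR and 4 had an unadjusted p under 0.05 in STF. The transcription factor gene Myc was nearest, with 0 to 37.7 CPM on RFD (median 20.3) and 0 to 92.7 CPM on HFD (median 69) and a log2 fold change of 1.47 ± 0.46 (adjusted p = 0.104), Mycn had 2.95 ± 1.03 (adjusted p = 0.132), and the S6 kinase gene Rps6kb2 had -0.90 ± 0.35 (adjusted p = 0.174). Over both sets Mycn was called higher at 1.82 ± 0.67 (adjusted p = 0.0835) and Rps6kb2 lower at -0.55 ± 0.21 (adjusted p = 0.0952).

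Length and abundance were set beside the family's values, since its mRNAs are short and abundant. The median transcript length was 712 bases over the 83 genes. For 2183 other genes under 1000 bases the median log2 fold change was 0.02 in STF and 0.01 in LTF. It was lower for 2326 other genes of 4000 bases or more, at -0.20 and -0.10. For 2118 other genes with a median CPM of 48.7 to 302, the range of the middle 80% of members, it was 0.03 and 0.02. Ribosomal protein genes have many processed copies in the genome. The 280 annotated pseudogenes named after them held 1.14% of the reads on members and pseudogenes together. Copies annotated under other names were not counted. In 45 members some reads had been divided with other genes. The 38 members with whole counts in every library gave 17 calls in STF and 26 over both sets, with medians of 0.66 and 0.52. Of all genes, 2% and 6.03% were called higher.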

How the data were processed

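Tuft cells of 45 mice were profiled by bulk RNA-seq (Smart-seq2). Per the labels, the authors trimmed reads with Cutadapt 1.15, aligned them with STAR 2.6.0 to GRCm38 and quantified genes with RSEM. The deposited expected counts divide a read that matches several genes, and 8.79% of the values above 0 were not whole, so they were rounded. TPM, deposited by the authors, were used for levels. The labels give 9 weeks for all mice whereas the study describes a second, longer feeding, so LTF was taken as that set. The authors' weighing by cell type was not repeated, the FPKM tables were not used, and 24 columns that match no labelled sample were left out.

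Genes with more than 5 reads in at least 6 libraries were tested with edgeR 4.0.16 (R 4.3.3, TMM factors, robust quasi-likelihood test, Benjamini-Hochberg over 14020 genes, threshold adjusted p under 0.1), within each set, over both sets and as an interaction. CPM are scaled by TMM factors, and the SE is the fold change divided by the root of F. limma 3.58.1 and DESeq2 1.42.0 were alternatives. Scripts were tested on simulated data. Members and lists were chosen with earlier results of these data known. Members were named as the 10 called with the smallest p, the 3 nearest in each direction where under 6 passed, fixed role genes and paralog pairs, the 3 highest and lowest in TPM and the 3 with the smallest interaction p. Transcript starts are from RefSeq, GRCm38.p6, and gene positions are GRCm38. The result of 1 gene listed beside the members is not reported here.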

Additional observations from a re-analysis of the deposited data

How the results depend on the processing

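No paired analysis was possible because mice on RFD and HFD share no replicate number within a set. In STF, where 43 of the 83 genes were called among 466 in all, DESeq2 called 71 among 1534, a rank test in the manner of SAM-seq 77 among 1772, the fit without libraries under 500000 reads 28 among 290, the fit without libraries rich in Paneth markers (chosen after seeing the data) 12 among 141, the marker covariate 0 among 24 and limma on log2(TPM + 1) 0 among 9. In LTF, where 0 were called, DESeq2 called 4, the number series as a term 2 and the rank test 32, and without the library under 10000 genes 241 of all genes were called, against 111. Over both sets, where 65 were called among 1642, limma called 35 among 941. The cause of these shifts was not tested. DESeq2 size factors, TMM factors without these genes, no filter and the fit without robust estimates stayed within 1.5 times of each count of these genes, while without the filter 1698 of all genes were called in STF and 434 in LTF. With TMM factors without these genes, 1030 of 1639 calls over both sets were higher, against 846 of 1642. The share as TPM had medians of 3.08% and 3.79% in STF and 2.87% and 3.70% in LTF.

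Directions turned for genes near 0. Rpl41 in STF was -0.058 with limma, Rps27rt in STF -0.13 without the libraries rich in Paneth markers, and Rps27 in LTF 0.0069 without the filter and 0.00087 with the number series. The interaction of Rpl36al was -0.019 with DESeq2, -0.021 with its size factors, -0.034 with TMM factors without these genes, -0.0074 without libraries under 500000 reads, -0.0082 with the marker covariate, -0.048 without libraries under 10000 genes and -0.038 without the libraries rich in Paneth markers. The rank test was not run over both sets or for the interaction, and no LTF library was under 500000 reads.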
